A study of Mus musculus with 20 samples.

Results

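The genes of cholesterol and fatty acid synthesis are a set of 35 named genes that cover the mevalonate steps, the sterol steps, the proteins that control the pathway, the fatty acid enzymes and 2 sterol exporters. Their rows were taken by symbol from tables of 41115 genes. Levels are given as CPM (a count relative to its TMM-scaled library total). For the filter the library total was not scaled, and a gene was kept when it reached at least 1 CPM in at least 3 of the 20 libraries. This kept 34 of the 35. The exception was Elovl6, an elongase of long fatty acids, which had 0 counts in all 20 libraries, where 3 counts would have been between 0.0464 and 0.0749 CPM. Whether it was left out at the counting step or not expressed cannot be told from the tables.

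The libraries are poly-A messenger RNA of mouse cells labelled spleen, from 1 treated and 1 untreated mouse. The treatment was a cocktail of LPS (lipopolysaccharide of bacterial outer membranes, sensed by TLR4), IL4 and TGFb, named for the induction of AID, the enzyme of antibody class switching. Whether the animal or its isolated cells received the cocktail is not given in the labels. With 1 mouse per arm, spleen samples over 10 times would have to come from cells held outside the animal. Each arm was sampled at 0, 15 and 30 min and at 1, 2, 3, 6, 12, 24 and 48 h, with 1 library per arm and time, 10 per arm. The labels give no strain, age, sex, cell purification or culture step for either arm. The 3 times of a phase stood in for replicates, early (15 min, 30 min and 1 h), middle (2, 3 and 6 h) and late (12, 24 and 48 h), so SEs and p-values measure the spread between times and not between animals.

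Cells make cholesterol from acetyl-CoA through mevalonate and squalene, and fatty acids from the same precursor through malonyl-CoA. Both routes are switched on by the SREBP transcription factors, encoded by Srebf1 and Srebf2. When membrane sterol is low, the escort protein SCAP carries SREBP to the Golgi, where it is cut and released. When sterol is high, the INSIG proteins hold SCAP back, while sterol-activated LXR receptors switch on the exporters ABCA1 and ABCG1. Lymphocytes that leave the resting state are known to raise lipid synthesis to build new membranes.

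The libraries held 36873155 to 60918651 counts. All 8 B cell markers reached 1 CPM, with a summed level of 1488 to 2447 CPM. Late sums of these B cell markers were 1488 to 1643 CPM in the stimulated arm and 2032 to 2159 CPM in the untreated arm. Of 11 macrophage markers in the tables, 5 reached 1 CPM, and C1qa, C1qb, Cd14, Lyz2, Mertk and Spic stayed below it. The summed macrophage list was 87.5 to 133 CPM in late stimulated libraries and 26 to 39 CPM in late untreated ones. Its markers did not move together, as 3 of the 5 tested were higher and 2 lower in the late stimulated libraries. The dendritic list (4 of 6 reaching 1 CPM) summed to 35.4 to 66 CPM and 18.4 to 22 CPM in the same libraries. Of 7 T cell markers 2 reached 1 CPM, with the list summing to 10.7 to 22.2 CPM, while Cd2, Cd3d, Cd3e, Cd3g and Cd8a stayed below it. Of 5 NK cell markers 1 reached it (sums of 5.36 to 17.9 CPM), as did 1 of 7 erythroid and 0 of 6 neutrophil markers.

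Promoter sequences are shown first, because most members changed level together over time. They come from the RefSeq table of GRCm38.p6 and cover the 250 bases before the transcription start, 5′ to 3′ on the gene's strand, and 27 of the 35 members had an entry. The searched motifs were TCACNCCAC (a sterol regulatory element, bound by SREBP), CCAAT (bound by NF-Y) and GGGCGG (bound by Sp1), each on both strands, and none of these motifs contains another. Capitals below mark TCACNCCAC and CCAAT, the second also as its reverse complement ATTGG. Hmgcs1 is shown as the one member with a sterol element match, Mvk as the member with the most CCAAT matches (5), Sc5d for the sterol steps, Fasn for the fatty acid enzymes, and Abca1 as an exporter with neither motif. The windows are chr13:119690101-119690350 (plus strand) for Hmgcs1, chr5:114444019-114444268 (plus) for Mvk, chr9:42264301-42264550 (minus) for Sc5d, chr11:120824548-120824797 (minus) for Fasn and chr4:53159896-53160145 (minus) for Abca1. None of them overlaps an annotated exon of the 35 named genes, and exons of other genes were not checked.
Hmgcs1: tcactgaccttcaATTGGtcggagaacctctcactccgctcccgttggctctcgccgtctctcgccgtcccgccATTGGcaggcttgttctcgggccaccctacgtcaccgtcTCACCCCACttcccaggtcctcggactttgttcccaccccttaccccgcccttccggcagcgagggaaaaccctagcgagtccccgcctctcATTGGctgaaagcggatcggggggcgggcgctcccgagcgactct
Mvk: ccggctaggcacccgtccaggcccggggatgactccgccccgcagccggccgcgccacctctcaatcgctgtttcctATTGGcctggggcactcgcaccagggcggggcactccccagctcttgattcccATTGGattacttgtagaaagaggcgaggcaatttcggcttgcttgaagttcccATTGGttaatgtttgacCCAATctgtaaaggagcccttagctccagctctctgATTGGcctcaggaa
Sc5d: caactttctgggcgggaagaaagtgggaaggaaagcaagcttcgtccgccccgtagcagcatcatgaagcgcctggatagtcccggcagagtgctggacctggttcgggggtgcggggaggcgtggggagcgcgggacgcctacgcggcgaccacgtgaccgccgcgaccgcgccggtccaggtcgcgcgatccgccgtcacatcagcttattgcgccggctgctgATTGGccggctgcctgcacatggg
Fasn: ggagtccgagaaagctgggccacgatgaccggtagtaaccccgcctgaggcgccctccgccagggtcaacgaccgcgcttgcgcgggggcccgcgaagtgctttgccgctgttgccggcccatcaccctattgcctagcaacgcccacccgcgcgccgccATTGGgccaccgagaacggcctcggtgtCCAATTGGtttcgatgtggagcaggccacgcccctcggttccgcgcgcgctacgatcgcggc
Abca1: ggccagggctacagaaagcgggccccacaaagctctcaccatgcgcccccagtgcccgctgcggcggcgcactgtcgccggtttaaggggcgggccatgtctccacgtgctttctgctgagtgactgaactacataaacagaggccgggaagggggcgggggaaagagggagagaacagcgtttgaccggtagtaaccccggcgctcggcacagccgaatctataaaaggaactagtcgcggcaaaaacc

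The Hmgcs1 element reads TCACCCCAC and starts 137 bases before the transcription start. It was the only match among the 27 members, or 3.7%, against 1.22% of 27025 genes with an entry and 1.3% of the 8773 that were also expressed here. CCAAT was found in 20 of the 27 members (74.1%), among them 9 of 9 sterol-step genes, 5 of 6 mevalonate genes, 4 of 5 control genes and 2 of 6 fatty acid genes. The share was 37.5% of all genes and 40.7% of expressed ones. Some genes have several listed starts, and a gene counted when the window of any of them matched (36 windows for the 27 members). Dhcr7 matched CCAAT only in window 3, whose 250 bases all lie in annotated exon, and Me1 only in window 2. GGGCGG was found in 23 of 27 members (85.2%), against 35.4% and 62.8%. A match is a description of these letters in this window and not a binding site.

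The enzymes of sterol synthesis (8 mevalonate and 10 sterol-step genes) were higher at 24 h than at 0 min in both arms, by more than 2-fold for 16 of 18 in the stimulated and 17 of 18 in the untreated arm. The same held for 946 and 664 of all 12139 genes tested. Their median level relative to 0 min was 1.03-fold at 1 h in the stimulated arm, 3.6-fold at 6 h, 2.33-fold at 12 h, 5.39-fold at 24 h and 4.31-fold at 48 h. In the untreated arm it was 1.22-fold, 3.08-fold, 2.03-fold, 4.85-fold and 2.9-fold at the same times. The median of all 12139 genes tested stayed between 0.98-fold and 1.01-fold. In bulk RNA, more cells of a type and more RNA per cell cannot be told apart. The cell cycle list (12 genes) moved over the same times, from a summed 2774 CPM at 0 min to at most 5123 CPM in the stimulated arm and from 2768 to at most 5316 CPM in the untreated arm, and its part in the course was not tested.

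**Figure D1:**
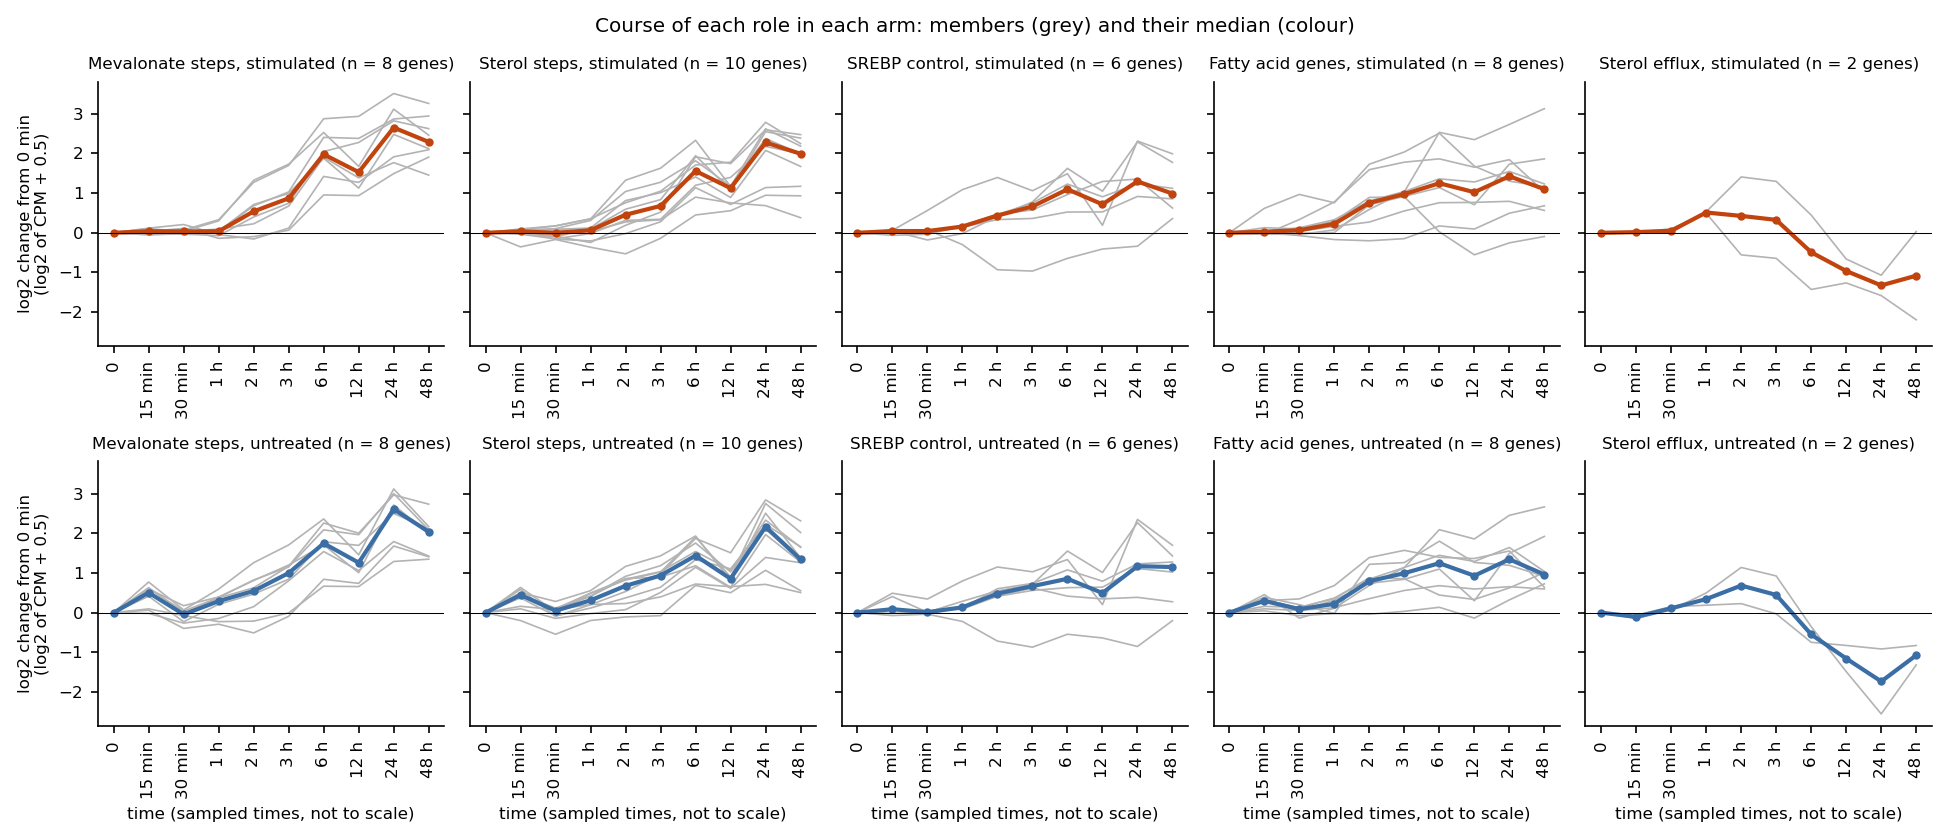
Log2 change of each member from the 0 min library of its own arm (grey lines, log2 of CPM plus 0.5) and the median of its role (coloured line), in the stimulated arm (top) and the untreated arm (bottom), with sampled times on the x axis not drawn to scale. The medians of the mevalonate and sterol steps are higher at 6 h and 24 h than at 12 h in both arms, and the median of the 2 exporters is below 0 from 6 h on.

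From the early to the middle phase, 23 of the 34 members rose and 2 fell in the stimulated arm, where 22.1% of all genes tested rose and 19.3% fell (41.3% in either direction, edgeR's quasi-likelihood test). The median member change was 0.92 on the log2 scale, against −0.00157 for all genes. In the untreated arm 11 members rose and 1 fell, against 13.6% and 11.9% of all genes (25.4% in either direction), with a median of 0.748. All 18 sterol-synthesis genes had a positive change in both arms, of which 13 rose in the stimulated and 4 in the untreated arm. With library totals as the only scaling, the median of all genes in the stimulated contrast shifted to −0.136 and that of the members to 0.787, with 17 called higher and 2 lower (8 and 1 in the untreated arm). Leaving out 15 min gave 14 called members in the stimulated and 5 in the untreated arm, and leaving out 30 min gave 16 and 2. The untreated count was 6 without 1 h and 3 without 3 h. The difference between the arms in this change was tested as a difference of treatment effects between phases, and passed for Idi1 and Abca1 among the members, as given below.

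From the middle to the late phase, 9 members passed as higher and 4 as lower in the stimulated arm. Over all genes the shares were 11.5% and 10.1% (21.6% in either direction). In the untreated arm 1 passed as higher and 1 as lower (6.19% and 5.83% of all genes, 12.0% in either direction). The stimulated change was positive for 29 of 34 members, with a median of 0.523 on the log2 scale, against 0.017 for all genes. The untreated change was positive for 28 of 34, with a median of 0.462, against 0.00739. All 18 sterol-synthesis genes had a positive change in both arms, with medians of 0.911 stimulated and 0.655 untreated. Leaving out 6 h gave 26 calls in the stimulated and 16 in the untreated arm, and leaving out 12 h gave 8 in the untreated arm. In the stimulated arm there were 0 calls without 3 h, 3 without 2 h, 4 without 24 h, 7 without 30 min or 48 h and 8 without 15 min. In the untreated arm leaving out any time other than 6 or 12 h gave 1.

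Among the mevalonate genes, Hmgcs1, which condenses acetyl-CoA with acetoacetyl-CoA ahead of the pathway's rate-limiting reductase, covered a wide range. In the stimulated arm Hmgcs1 was at 91.8 CPM at 0 min, 91.3 at 15 min, 94.5 at 30 min, 113 at 1 h, 231 at 2 h, 306 at 3 h, 532 at 6 h, 294 at 12 h, 801 at 24 h and 507 at 48 h. The untreated libraries gave 93.8, 161, 98.4, 142, 225, 308, 485, 259, 819 and 424 CPM at the same times. Both arms were highest at 24 h and were at 12 h below the 6 h level. Hmgcs1 rose from the early to the middle phase by 1.84 ± 0.44 (log2, SE, n = 3 times per phase, edgeR adjusted p = 0.0043) in the stimulated arm and by 1.34 ± 0.43 (adjusted p = 0.0332) in the untreated arm. Its late treatment effect was 0.13 ± 0.11 (adjusted p = 0.397). The gene lies at chr13:119690379-119708260 (GRCm38, plus strand), and its exons overlap Gm48342 on the other strand, so its count is uncertain.

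Idi1, the isomerase that interconverts the isoprenoid building blocks, differed between arms in the middle and late phases. In the stimulated arm Idi1 was at 15.4 CPM at 0 min, 15.9 at 15 min, 16.2 at 30 min, 19.5 at 1 h, 37.9 at 2 h, 51.1 at 3 h, 116 at 6 h, 121 at 12 h, 181 at 24 h and 152 at 48 h. Without stimulation the levels were 15.7, 24.1, 16.1, 20.6, 28.1, 35.5, 68.2, 62.6, 129 and 68.3 CPM. From 2 h on each stimulated library was above the untreated library of its time, by 1.35-fold at 2 h, 1.94-fold at 12 h and 2.23-fold at 48 h. The treatment effect was 0.58 ± 0.13 (log2, SE, n = 3 times, edgeR adjusted p = 0.0118) in the middle and 0.85 ± 0.13 (adjusted p = 0.000505) in the late phase. Early, Idi1 gave −0.23 ± 0.14 (adjusted p = 0.46), and the middle minus early difference was 0.81 ± 0.19 (adjusted p = 0.0357). Idi1 lies at chr13:8885501-8892451 (plus strand), and its exons overlap Gm48574 on the other strand.

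Fdps, which makes farnesyl pyrophosphate, was at 23.7 CPM at 0 min, 22.8 at 15 min, 23.5 at 30 min, 24.4 at 1 h, 38.4 at 2 h, 49 at 3 h, 128 at 6 h, 126 at 12 h, 177 at 24 h and 186 at 48 h in the stimulated arm. Untreated cells had 24, 37.5, 23.8, 31.2, 37.3, 54.6, 117, 97.8, 191 and 163 CPM. It rose by 1.61 ± 0.43 from early to middle in the stimulated arm (edgeR adjusted p = 0.00904), and the untreated change of 1.17 ± 0.43 missed the threshold (adjusted p = 0.0547). Acat2, the thiolase of the opening step, was one of the members picked after their values were seen, and was higher under stimulation in the late phase by 0.41 ± 0.11 (adjusted p = 0.0117). Its levels at 12, 24 and 48 h were 120, 176 and 153 CPM stimulated and 82.8, 145 and 111 CPM untreated. The kinases Mvk and Pmvk, the decarboxylase Mvd and the squalene synthase Fdft1 had late treatment effects between −0.08 and 0.17, none past the threshold. Exons of Fdft1 overlap Ctsb and those of Fdps overlap Gm43738, so these counts are uncertain.

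Sqle, the squalene epoxidase that adds the first oxygen to squalene, opened the sterol steps. Sqle was at 88.4 CPM at 0 min, 93.1 at 15 min, 95.1 at 30 min, 110 at 1 h, 183 at 2 h, 215 at 3 h, 312 at 6 h, 200 at 12 h, 461 at 24 h and 353 at 48 h in the stimulated arm. Untreated levels were 89.8, 123, 97.2, 120, 170, 205, 304, 184, 455 and 283 CPM. The arms ran close together, and Sqle rose from early to middle in both, by 1.25 ± 0.33 (log2, SE, n = 3 times per phase, edgeR adjusted p = 0.00746) stimulated and 0.99 ± 0.32 (adjusted p = 0.0362) untreated. Sqle lies at chr15:59315077-59331192 (plus strand).

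Hsd17b7 and Msmo1 act in the removal of the methyl groups of lanosterol. Hsd17b7 was at 17 CPM at 0 min, 18.2 at 15 min, 19.3 at 30 min, 21.8 at 1 h, 43.4 at 2 h, 53.7 at 3 h, 87.7 at 6 h, 38.9 at 12 h, 107 at 24 h and 79.2 at 48 h in the stimulated arm, and at 18, 25.7, 21.9, 26.6, 40.9, 49.3, 70, 32, 105 and 47.6 CPM in the untreated arm. Msmo1 was at 40.6, 40.2, 38, 43.4, 61.6, 72.9, 158, 86.5, 241 and 215 CPM stimulated and at 37.7, 58.9, 38.3, 52.9, 67, 77.1, 143, 70.6, 257 and 155 CPM untreated at the same 10 times. Both genes had their highest level at 24 h in both arms. From early to middle they rose in the stimulated arm, Hsd17b7 by 1.64 ± 0.40 (edgeR adjusted p = 0.00535) and Msmo1 by 1.26 ± 0.46 (adjusted p = 0.0392). The untreated changes, 1.11 ± 0.40 and 0.93 ± 0.46, missed it (adjusted p = 0.0518 and 0.14).

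Cyp51, the lanosterol demethylase, was the sterol-step gene with the largest late difference between arms, and was singled out after its values were seen. In the stimulated arm Cyp51 was at 191 CPM at 0 min, 201 at 15 min, 215 at 30 min, 244 at 1 h, 323 at 2 h, 395 at 3 h, 625 at 6 h, 657 at 12 h, 1319 at 24 h and 909 at 48 h. The untreated libraries gave 193, 265, 206, 272, 347, 395, 562, 407, 832 and 478 CPM. Up to 3 h the stimulated level was between 0.76 and 1.05 of the untreated one, and at 12, 24 and 48 h the stimulated libraries were the higher ones. The late treatment effect was 0.75 ± 0.08 (log2, SE, n = 3 times, 1.68-fold, edgeR adjusted p = 6.23e-05), against 0.02 ± 0.08 in the middle phase, and the late minus middle difference was 0.73 ± 0.12 (adjusted p = 0.00679). Cyp51 lies at chr5:4081145-4104746 (minus strand) and its exons overlap Akap9.

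The other sterol steps differed less. In the late phase Nsdhl (0.37 ± 0.10, edgeR adjusted p = 0.0134), Hsd17b7 (0.34 ± 0.11, adjusted p = 0.0344) and Sc5d (0.27 ± 0.08, adjusted p = 0.0277) were higher under stimulation, all 3 acting between lanosterol and cholesterol. The late effects of Lss, Tm7sf2, Msmo1, Sqle, Ebp and Dhcr7 did not pass, with log2 values from −0.11 to 0.21. Tm7sf2, a sterol reductase, was at 2.22 to 8.91 CPM, and its exons overlap Vps51.

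**Figure D2:**
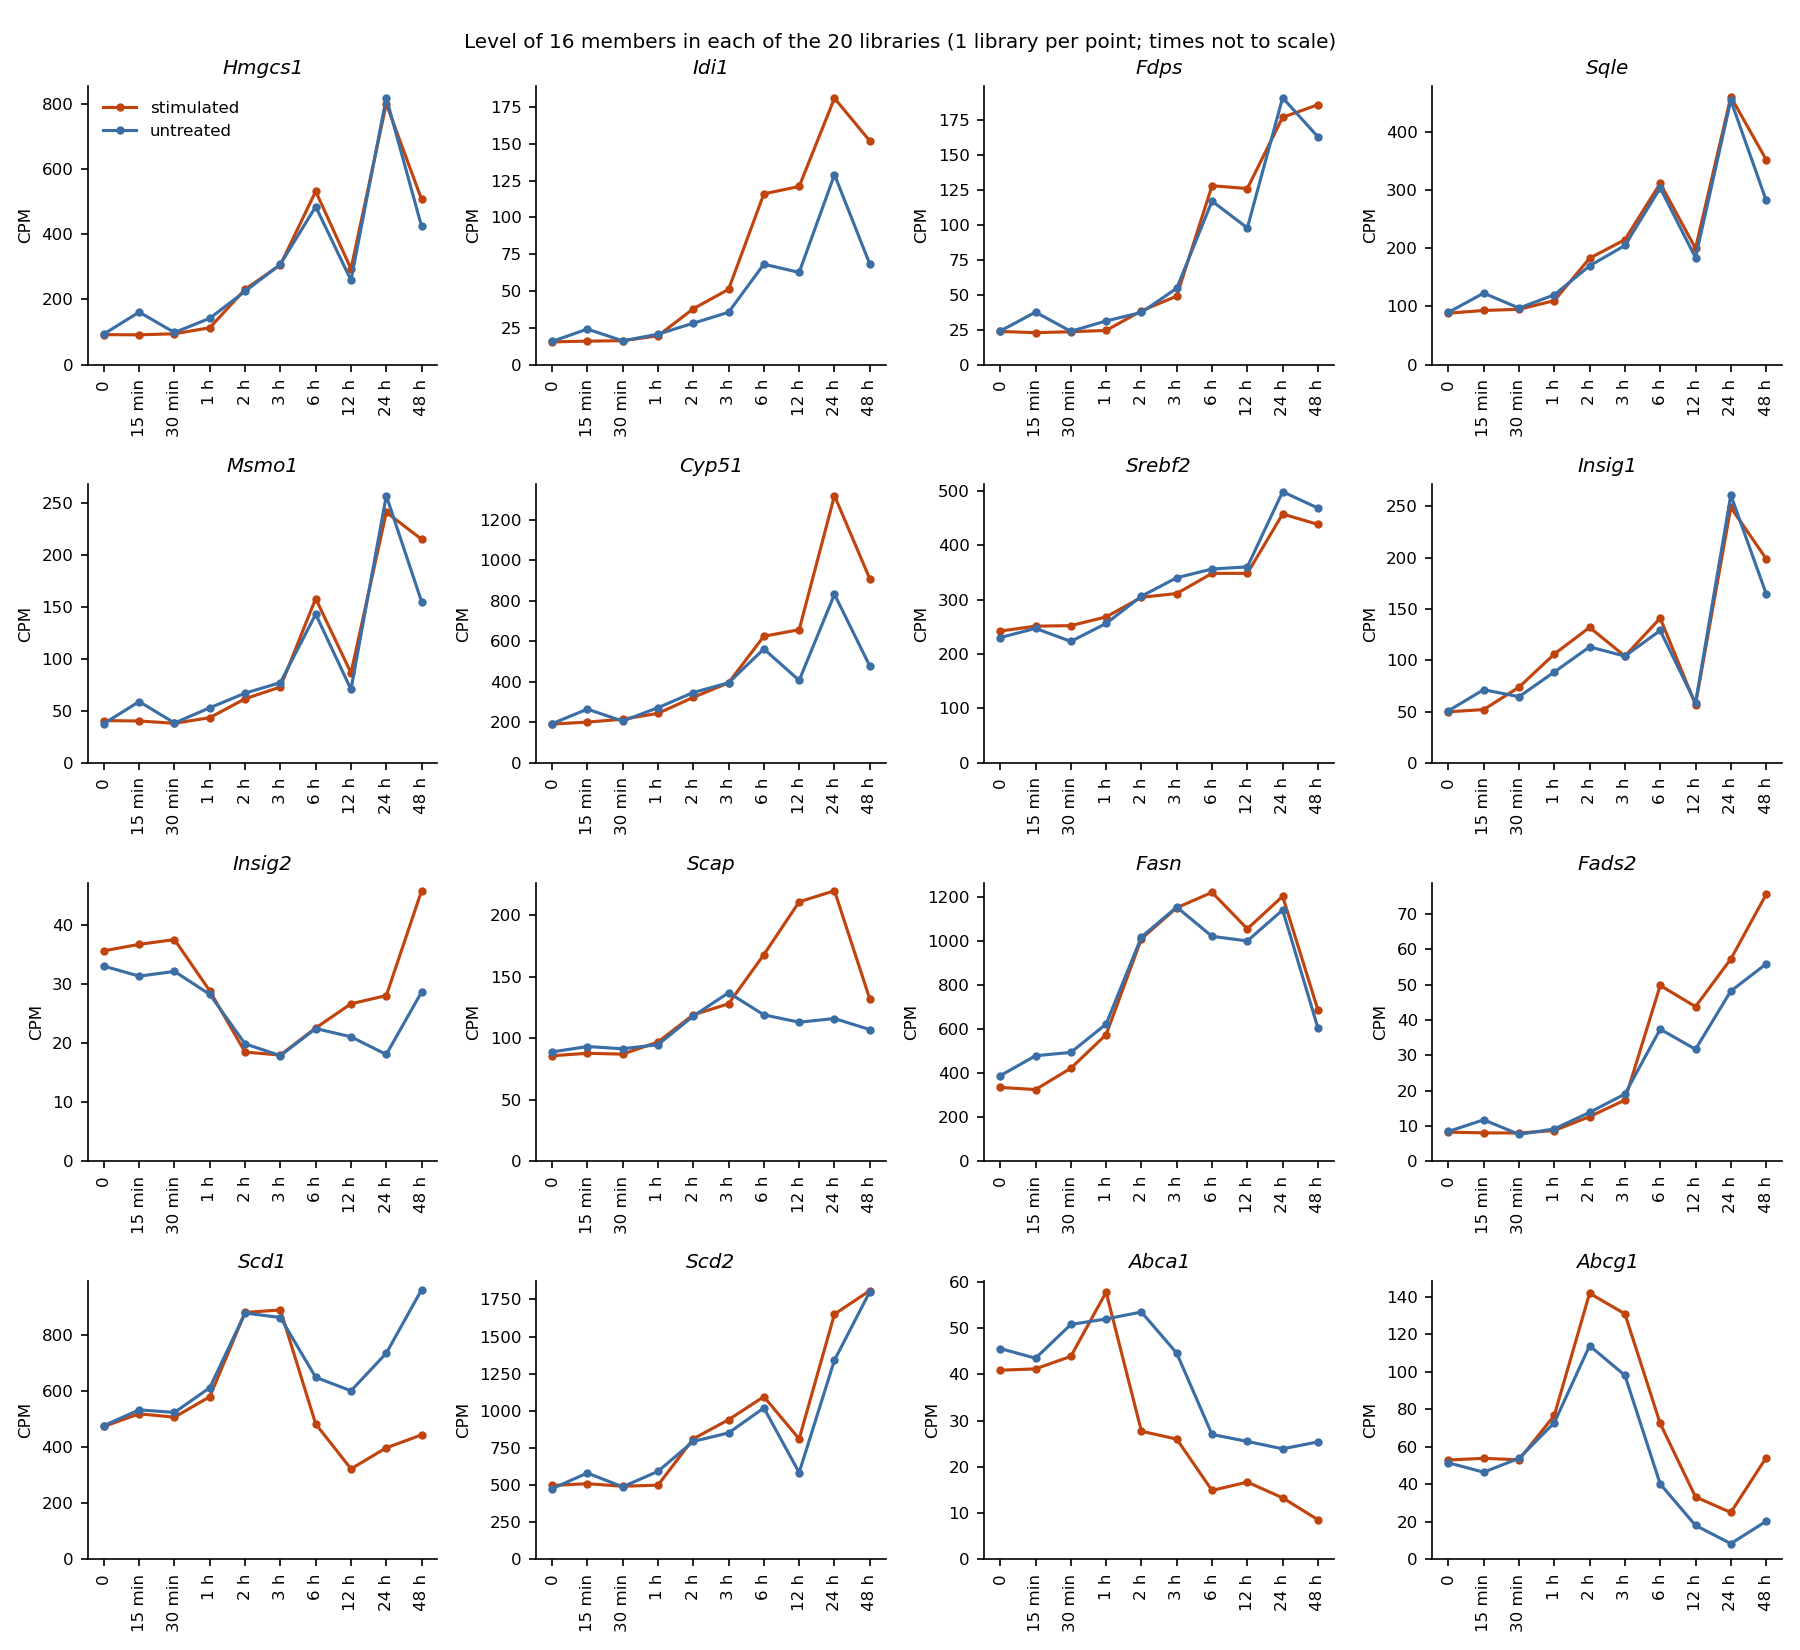
Level of 16 members in CPM (y axis, starting at 0 in each panel) at each sampled time (x axis, not to scale), 1 library per point, stimulated in red and untreated in blue. The arms lie close together for Hmgcs1, Sqle and Srebf2, and apart at late times for Idi1, Cyp51, Scap, Scd1, Abca1 and Abcg1.

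Among the control genes, the 2 SREBP genes changed little between arms. Srebf2, the SREBP that mainly drives sterol genes, was at 242 CPM at 0 min, 251 at 15 min, 252 at 30 min, 268 at 1 h, 304 at 2 h, 311 at 3 h, 348 at 6 h, 348 at 12 h, 457 at 24 h and 438 at 48 h in the stimulated arm. Without stimulation the levels were 230, 247, 223, 256, 306, 340, 356, 360, 498 and 468 CPM. It was the only member that passed as higher from the middle to the late phase in the untreated arm. The change was 0.40 ± 0.12 (log2, SE, n = 3 times per phase, edgeR adjusted p = 0.0416), and the stimulated change was 0.37 ± 0.12 (adjusted p = 0.0415). The untreated call was kept in 6 of 17 alternatives and the stimulated call in 7 of 17. All 18 sterol-synthesis genes also had a positive untreated change, with a median of 0.655, but none of them passed. The late treatment effect on Srebf2 was −0.10 ± 0.05 (adjusted p = 0.11).

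Srebf1, the SREBP that mainly drives fatty acid genes, was at 58.3 CPM at 0 min, 55.7 at 15 min, 56.8 at 30 min, 65.5 at 1 h, 80.1 at 2 h, 98.5 at 3 h, 137 at 6 h, 110 at 12 h, 138 at 24 h and 127 at 48 h in the stimulated arm. Untreated cells had 61, 60.3, 61.6, 66, 92.9, 102, 129, 106, 144 and 149 CPM. Srebf1 rose from early to middle by 0.83 ± 0.18 (edgeR adjusted p = 0.0026) and 0.79 ± 0.18 (adjusted p = 0.00755). No treatment effect on Srebf1 passed, the late one being −0.09 ± 0.06 (adjusted p = 0.305). The 2 transcripts of this gene that feed the a and c forms of the protein cannot be told apart in counts per gene.

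The 2 INSIG genes had different courses. Insig1, itself a known SREBP target, was at 49.7 CPM at 0 min, 51.9 at 15 min, 73.7 at 30 min, 106 at 1 h, 132 at 2 h, 104 at 3 h, 141 at 6 h, 56.8 at 12 h, 249 at 24 h and 199 at 48 h in the stimulated arm. Untreated levels were 50.7, 71.3, 64.4, 88.5, 113, 104, 129, 58.3, 261 and 165 CPM. Its 12 h level was close to the 0 min level in both arms, and its changes between phases did not pass (stimulated middle minus early 0.70 ± 0.47, edgeR adjusted p = 0.244).

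Insig2 was at 35.7 CPM at 0 min, 36.8 at 15 min, 37.6 at 30 min, 28.9 at 1 h, 18.5 at 2 h, 18 at 3 h, 22.6 at 6 h, 26.7 at 12 h, 28.1 at 24 h and 45.9 at 48 h in the stimulated arm. The untreated libraries gave 33.1, 31.4, 32.2, 28.3, 19.9, 17.9, 22.5, 21.1, 18.1 and 28.7 CPM. It fell from early to middle in both arms, by 0.81 on the log2 scale (SE 0.20, edgeR adjusted p = 0.00604) and by 0.61 (SE 0.20, adjusted p = 0.039). In the stimulated arm it then rose by 0.77 ± 0.20 (adjusted p = 0.0157), and the untreated change was 0.17 ± 0.20 (adjusted p = 0.602). The late treatment effect was 0.54 ± 0.08 (adjusted p = 0.000316) and the late minus middle difference 0.57 ± 0.11 (adjusted p = 0.0139).

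Scap, picked after its values were seen, was at 85.7 CPM at 0 min, 96.9 at 1 h, 128 at 3 h, 168 at 6 h, 211 at 12 h, 220 at 24 h and 132 at 48 h in the stimulated arm, and at 88.8, 94.7, 137, 119, 113, 116 and 107 CPM in the untreated arm. The arms parted at 6 h and were 1.23-fold apart at 48 h. Its late effect was 0.70 ± 0.12 (log2, SE, n = 3 times, edgeR adjusted p = 0.00119), while the late minus middle difference, 0.56 ± 0.17, missed the threshold (adjusted p = 0.0803). Exons of Scap overlap 5830462I19Rik on the other strand, so this count is uncertain.

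Stard4, a carrier of cholesterol between membranes, was at 65.3 CPM at 0 min, 67.4 at 15 min, 57.5 at 30 min, 64.4 at 1 h, 87.3 at 2 h, 112 at 3 h, 203 at 6 h, 136 at 12 h, 322 at 24 h and 225 at 48 h in the stimulated arm. Untreated levels were 63.6, 84.4, 64, 77.7, 93.2, 105, 188, 129, 309 and 172 CPM. The highest level was at 24 h in both arms. Stard4 rose from early to middle by 1.09 ± 0.37 stimulated (adjusted p = 0.0295) and its late treatment effect was 0.16 ± 0.07 (adjusted p = 0.0906).

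Among the fatty acid genes, Fasn, the synthase of palmitate, had a high level and reached most of it by 2 h. Fasn was at 335 CPM at 0 min, 325 at 15 min, 422 at 30 min, 575 at 1 h, 1011 at 2 h, 1152 at 3 h, 1222 at 6 h, 1056 at 12 h, 1204 at 24 h and 687 at 48 h in the stimulated arm. Without stimulation the levels were 388, 479, 494, 623, 1019, 1155, 1022, 1001, 1142 and 605 CPM. The arms ran close together, and Fasn rose from early to middle by 1.36 ± 0.24 (log2, SE, n = 3 times per phase, edgeR adjusted p = 0.000817) and 1.00 ± 0.24 (adjusted p = 0.00945). Fasn lies at chr11:120805846-120824547 (minus strand).

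Acly, which supplies cytosolic acetyl-CoA from citrate, rose from early to middle by 0.92 ± 0.18 (edgeR adjusted p = 0.00133) stimulated and 0.89 ± 0.18 (adjusted p = 0.00417) untreated. Acaca, which makes malonyl-CoA, rose by 0.47 ± 0.11 and 0.45 ± 0.11, both past the adjusted threshold of 0.05. Their late treatment effects were −0.02 ± 0.07 and 0.04 ± 0.05, neither past the threshold.

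Me1, the malic enzyme that supplies NADPH, was low throughout, at 0.785 CPM at 0 min, 1.47 at 15 min, 2.01 at 30 min, 1.67 at 1 h, 3.76 at 2 h, 4.77 at 3 h, 6.83 at 6 h, 3.62 at 12 h, 2.67 at 24 h and 2.38 at 48 h in the stimulated arm. Untreated cells had 1.17, 1.69, 1.42, 1.15, 3.39, 3.51, 5.33, 3.53, 3.32 and 2.65 CPM. Me1 rose by 1.58 ± 0.27 (edgeR adjusted p = 0.000594) and 1.52 ± 0.27 (adjusted p = 0.00225) from early to middle and fell by 0.83 (SE 0.26, adjusted p = 0.0358) from middle to late in the stimulated arm. Both arms had their highest Me1 level at 6 h.

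Fads2, a desaturase of polyunsaturated fatty acids, was at 8.2 CPM at 0 min, 7.99 at 15 min, 7.95 at 30 min, 8.65 at 1 h, 12.6 at 2 h, 17.3 at 3 h, 49.8 at 6 h, 43.8 at 12 h, 57.3 at 24 h and 75.6 at 48 h in the stimulated arm. Untreated levels were 8.38, 11.7, 7.57, 9.1, 13.8, 19, 37.4, 31.7, 48.2 and 55.9 CPM. It rose from early to middle by 1.70 ± 0.45 (edgeR adjusted p = 0.00776) and 1.31 ± 0.44 (adjusted p = 0.0408), and was higher under stimulation in the late phase by 0.37 ± 0.12 (adjusted p = 0.0319). The neighbouring Fads1 changed by 0.03 ± 0.18 (adjusted p = 0.922) and 0.06 ± 0.18 (adjusted p = 0.817) from early to middle, with levels of 68.4 to 132 CPM.

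Scd1 and Scd2, a pair of neighbouring genes for stearoyl-CoA desaturase, which puts the double bond into oleate, parted from each other, and were picked after their values were seen. Scd1 was at 473 CPM at 0 min, 518 at 15 min, 506 at 30 min, 579 at 1 h, 879 at 2 h, 888 at 3 h, 482 at 6 h, 322 at 12 h, 397 at 24 h and 443 at 48 h in the stimulated arm. The untreated libraries gave 476, 532, 523, 611, 877, 861, 648, 600, 734 and 960 CPM. The late libraries of the arms did not overlap, at 322 to 443 CPM stimulated and 600 to 960 CPM untreated. The late effect was −0.98 ± 0.08 (log2, SE, n = 3 times, 1.97-fold lower, edgeR adjusted p = 9.36e-06), the middle effect −0.12 ± 0.08 (adjusted p = 0.306), and the late minus middle difference −0.85 ± 0.11 (adjusted p = 0.00392).

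Scd2 was at 497 CPM at 0 min, 499 at 1 h, 811 at 2 h, 940 at 3 h, 1095 at 6 h, 811 at 12 h, 1651 at 24 h and 1809 at 48 h in the stimulated arm, and at 475, 592, 794, 851, 1019, 584, 1341 and 1801 CPM in the untreated arm. Scd2 was highest at 48 h in both arms, and higher under stimulation in the late phase by 0.25 ± 0.07 (edgeR adjusted p = 0.0233). The 2 genes lie on chromosome 19, Scd1 at chr19:44394455-44407879 (minus strand) and Scd2 at chr19:44293674-44306864 (plus strand), and are similar in sequence, so reads that the counting could not place may affect either.

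The 2 exporters had treatment effects of opposite sign in the middle and late phases. Abca1, which loads cholesterol onto apolipoproteins, was at 40.9 CPM at 0 min, 41.2 at 15 min, 43.9 at 30 min, 57.8 at 1 h, 27.7 at 2 h, 26 at 3 h, 14.9 at 6 h, 16.7 at 12 h, 13.3 at 24 h and 8.55 at 48 h in the stimulated arm. Without stimulation the levels were 45.6, 43.5, 50.8, 52, 53.5, 44.6, 27, 25.5, 23.9 and 25.4 CPM. Each stimulated library from 2 h on was below the untreated library of its time. The treatment effect was −0.86 ± 0.14 (log2, SE, n = 3 times, edgeR adjusted p = 0.00199) in the middle and −1.01 ± 0.14 (2.02-fold lower, adjusted p = 0.000289) in the late phase, and middle minus early was −0.82 ± 0.19 (adjusted p = 0.0328). Abca1 lies at chr4:53030787-53159895 (minus strand).

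Abcg1, which moves cholesterol to lipoprotein particles, was at 53 CPM at 0 min, 53.9 at 15 min, 53.1 at 30 min, 76.8 at 1 h, 142 at 2 h, 131 at 3 h, 72.5 at 6 h, 33.3 at 12 h, 25 at 24 h and 54.2 at 48 h in the stimulated arm. Untreated cells had 51.5, 46.5, 53.9, 72.9, 114, 98.2, 40.2, 18.1, 8.36 and 20.3 CPM. Both arms peaked at 2 h and were lowest at 24 h, and the stimulated library was the higher one at each time from 1 h on. The treatment effect was 0.52 ± 0.12 (log2, SE, n = 3 times, edgeR adjusted p = 0.0115) in the middle and 1.27 ± 0.13 (2.42-fold, adjusted p = 3.34e-05) in the late phase, with a late minus middle difference of 0.75 ± 0.17 (adjusted p = 0.0292). From middle to late Abcg1 fell by 1.61 (SE 0.40, adjusted p = 0.0122) in the stimulated arm and by 2.43 (SE 0.42, adjusted p = 0.00439) in the untreated arm. Abcg1 lies at chr17:31057675-31117988 (plus strand). Macrophages also express Abca1 and Abcg1, and the macrophage list summed to more in late stimulated than in late untreated libraries, as given above. The log2 late treatment effects of its 5 tested markers ran from −0.212 to 7.47, 3 positive and 2 negative, so the sum is not a measure of macrophage number. The part of macrophages in these differences was not tested.

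Counted over the set, stimulated over untreated, 0 of 34 members passed in the early phase, where 2.24% of all genes did, 0.598% higher and 1.64% lower (9 members were under 0.05 before adjustment by edgeR, DESeq2 called 5, all lower). The early median of the members was −0.127, with 28 of 34 below 0, against 0.00851 for all genes. The 3 early times were not alike. Relative to 0 min, the untreated member median was 1.24-fold at 15 min, 1.03-fold at 30 min and 1.16-fold at 1 h. The stimulated median was 1.02-fold, 1.03-fold and 1.08-fold. In the middle phase 2 were higher (Idi1, Abcg1) and 1 lower (Abca1), against 20.5% of all genes called (10.2% higher and 10.3% lower). With library totals as the only scaling this was 2 higher and 2 lower, and without the 3 h or the 6 h pair 1 member was called. In the late phase 11 were higher and 2 lower, 13 of 34, against 36.1% of all genes (17.8% higher and 18.3% lower), so the share called was near the background. The higher ones were Idi1, Acat2, Cyp51, Nsdhl, Hsd17b7, Sc5d, Scap, Insig2, Fads2, Scd2 and Abcg1, and the lower ones Abca1 and Scd1. The late median of the members was 0.131, against −0.00372 for all genes.

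Between phases, 4 members passed for late minus middle (3 higher and 1 lower, against 6.74% of all genes, 3.55% higher and 3.19% lower) and 2 for middle minus early (1 and 1, against 6.39%, 3.58% higher and 2.81% lower). The first count was 2 without 2, 3 or 24 h, and the second was 0 without 15 min, 30 min, 1, 3 or 6 h, 1 without 2 h and 5 without 48 h. The late treatment count was 7 without the 12 h pair and 8 without the 48 h pair, and 3 when time was not a factor. The paired libraries of a time always came from different lanes, with lane 1 untreated throughout and lane 4 stimulated throughout. Therefore lane and the treatment effect within a phase cannot be told apart in the fit with time as a factor. In a fit without the time factor and with lane, chosen after seeing the data, 0 members passed in each phase.

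**Figure D3:**
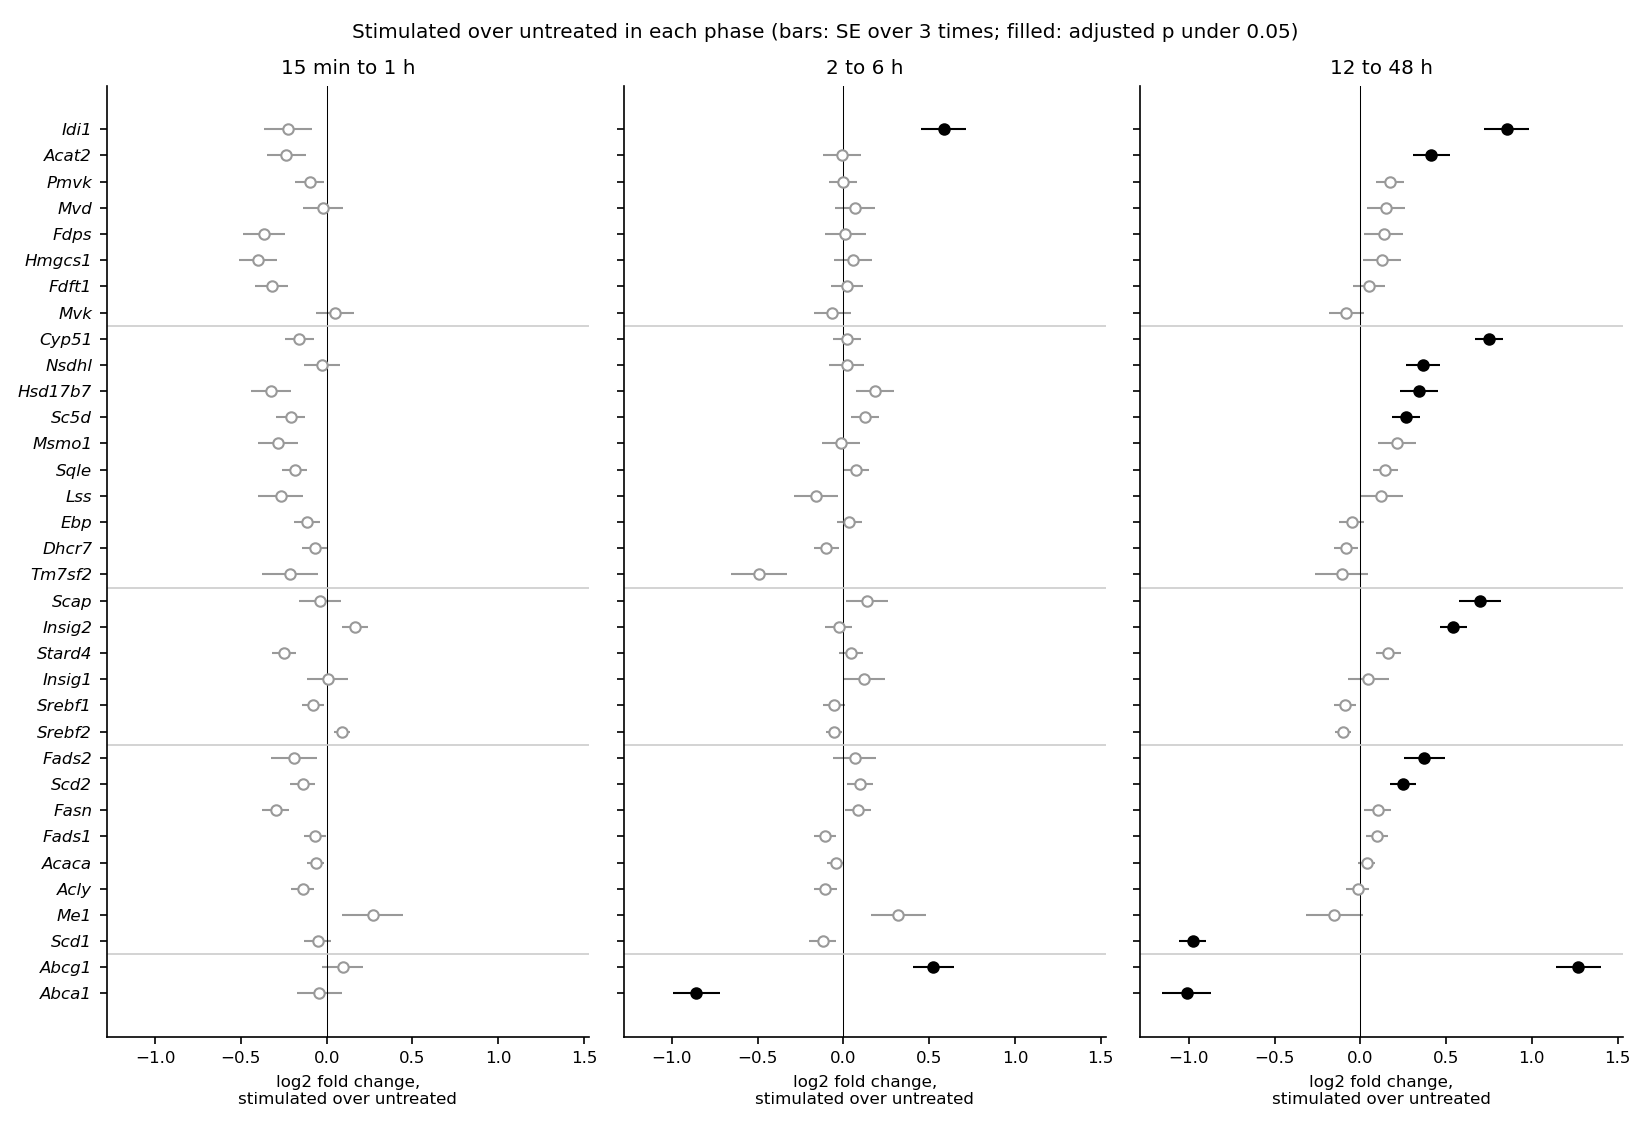
Log2 fold change of stimulated over untreated (x axis) for each of the 34 members (y axis, grouped by role and ordered by the late effect), in the early, middle and late phase. Bars are the SE of an effect over 3 times, from a spread estimate that all phases share. Filled points have an adjusted p under 0.05. No point is filled early, 3 are filled in the middle phase and 13 late, with Abcg1 at the right and Abca1 and Scd1 at the left.

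The sterol genes were lower at 12 h than at 6 h and 24 h, a pattern noticed in the values, so shares of all genes are given beside it with no test. In the untreated arm 18 of 18 sterol-synthesis genes had a 12 h level below both neighbours, and in the stimulated arm 12 of 18, against 24.8% and 25% of all genes tested. By more than 1.2-fold on each side and in both arms, 12 of the 34 members showed it (35.3%), against 1.38% of all genes. The 12 were Hmgcs1, Mvk, Fdft1, Sqle, Msmo1, Hsd17b7, Sc5d, Dhcr7, Srebf1, Insig1, Stard4 and Scd2.

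Insig1 stood out on both sides of 12 h, its level there being 0.404 of the 6 h level in the stimulated and 0.453 in the untreated arm, followed by a 4.39-fold and a 4.47-fold higher level at 24 h. Hsd17b7 was at 0.444 and 0.457 of its 6 h level, and Hmgcs1 at 0.553 and 0.534. Idi1 and Cyp51 at 12 h were at 1.04 and 1.05 of their 6 h level in the stimulated arm, but at 0.918 and 0.724 in the untreated arm. The 12 and 24 h libraries of an arm shared a lane, lane 2 stimulated and lane 1 untreated, and the 6 h libraries were in lanes 4 and 3.

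**Figure D4:**
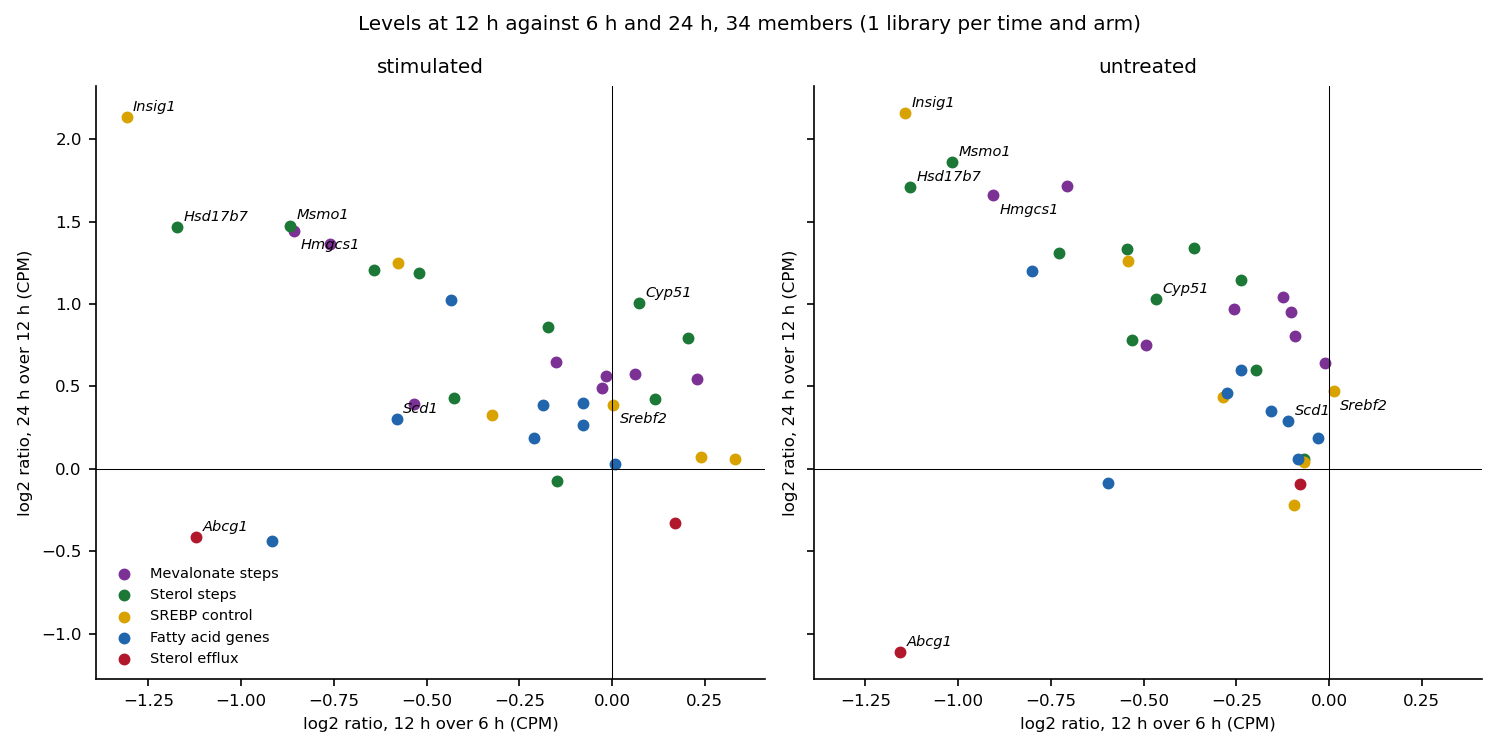
Log2 ratio of 12 h over 6 h (x axis) against 24 h over 12 h (y axis) for the 34 members, coloured by role, in the stimulated arm (left) and the untreated arm (right), from CPM of 1 library per time and arm. Points at the upper left are lower at 12 h than at both neighbours, 21 in the stimulated and 29 in the untreated arm, with Insig1 the highest on the y axis.

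At 24 h, 16 of the 34 members had their highest level in both arms (47.1%), against 9.45% of all genes tested. These were 12 of the 18 sterol-synthesis genes with Srebf2, Insig1, Stard4 and Acly. From 24 to 48 h, 14 of the 18 sterol-synthesis genes were lower in both arms, against 40.3% of all genes.

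In the first hour the untreated arm was uneven. Of the 18 sterol-synthesis genes, 17 had higher levels at 15 min and at 1 h than at 30 min, against 30% of all genes, and 10 of 18 by more than 1.2-fold on each side, against 1.92%. In the stimulated arm this held for 4 of 18, against 22.9%, and for 0 of 18 by 1.2-fold. Hmgcs1 was at 161 CPM at 15 min in the untreated arm, between 93.8 CPM at 0 min and 98.4 CPM at 30 min. The median sterol-synthesis level was 1.36-fold the 0 min level at 15 min. Untreated 0 min, 15 min and 1 h were in lane 1 and 30 min was in lane 3, and the part of the lane was not tested.

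Levels between genes were compared as CPM per kb of annotated exon. At 0 min the highest were Scd1 (97.1, mean of both arms), Scd2 (88.9), Cyp51 (43.5), Fasn (33) and Srebf2 (32.8), and the lowest Tm7sf2 (0.842) and Me1 (0.255). At 24 h Cyp51 was at 299 stimulated and 188 untreated, Scd2 at 302 and 245, and Hmgcs1 at 174 and 178, while Scd1 was at 81.2 and 150 CPM per kb.

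Other genes of the pathway came from 4 further lists. In the late phase, of 14 tested genes of sterol uptake, transport and synthesis 8 were higher and 2 lower under stimulation, of 8 further control genes 3 and 1, of 21 further fatty acid and lipid genes 9 and 3, and of 6 LXR genes 1 and 1, against 17.8% higher and 18.3% lower over all genes. From early to middle in the stimulated arm the counts were 8 and 1, 1 and 3, 10 and 1, and 0 and 1, against 22.1% and 19.3% of all genes.

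Cyb5r3, the reductase that passes electrons to cytochrome b5 for the sterol and fatty acid oxidations, had the largest late effect of those named here, 1.69 ± 0.13 (log2, SE, n = 3 times, 3.23-fold, edgeR adjusted p = 6.9e-06). Its levels at 12, 24 and 48 h were 224, 305 and 289 CPM stimulated and 83, 81.7 and 84.6 CPM untreated, with no overlap. Dgat2, which makes triglyceride, was higher late by 1.07 ± 0.15 (adjusted p = 0.000284), and Rxra, the partner of LXR, by 0.77 ± 0.07 (adjusted p = 2.02e-05). Dgat2 was at 8.95, 11.9 and 31.1 CPM stimulated and 5.63, 5.89 and 11 CPM untreated. At 0 min Dgat2 was at 11.2 CPM stimulated and 11.4 CPM untreated. Its untreated level was therefore lower at 12 and 24 h, and its stimulated level was well above 0 min only at 48 h. Rxra was at 51.1, 52.6 and 42.6 CPM stimulated and 29.7, 27.9 and 27 CPM untreated. At 0 min Rxra was at 49 CPM stimulated and 49.8 CPM untreated, so its untreated level was the one that fell.

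Erlin1, which takes part in INSIG and SREBP turnover at the endoplasmic reticulum, fell in both arms. Its level went from 122 CPM at 0 min to 53.7 CPM at 48 h stimulated and from 128 to 62.5 CPM untreated. The late treatment effect on Erlin1 was −0.41 ± 0.06 (log2, edgeR adjusted p = 0.000529). Acsl3 and Aacs, which activate fatty acids and acetoacetate, rose from early to middle in both arms, Acsl3 by 1.40 ± 0.19 (adjusted p = 0.000117) and 0.97 ± 0.18 (adjusted p = 0.00319), and Aacs by 1.18 ± 0.26 (adjusted p = 0.00312) and 0.97 ± 0.26 (adjusted p = 0.0163). Abcg4, a relative of Abcg1, had a late effect of −1.51 ± 0.33 (adjusted p = 0.00466), at 0.291 to 0.599 CPM stimulated and 0.808 to 1.48 CPM untreated, near the filter of 1 CPM. Mbtps2, a protease that cuts SREBP, fell from early to middle in both arms, with log2 changes of −0.60 ± 0.17 (edgeR adjusted p = 0.0113) stimulated and −0.59 ± 0.17 (adjusted p = 0.0213) untreated. Nr1h3, the gene of LXR alpha, fell from early to middle in both arms, with log2 changes of −1.14 ± 0.40 stimulated (adjusted p = 0.0346) and −1.56 ± 0.41 untreated (adjusted p = 0.0144).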

How the data were processed

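Read counts per gene were deposited by the authors, 1 table per library, as whole numbers that are not normalized. The submitters' processing notes name STAR, HTSeq, GRCm38.p3 and mm10. Tool versions and the strand setting were not given in the sources used here. Overlapping and near-identical genes are therefore uncertain.

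The deposited counts were scaled by TMM and tested with edgeR 4.0.16 (quasi-likelihood test, R 4.3.3), with Benjamini-Hochberg adjustment over all genes tested and a threshold of 0.05. Genes needed 1 CPM in 3 libraries. Treatment effects came from the 18 libraries after 0 min (12042 genes), with time as a factor and treatment within each phase, and changes within an arm from all 20 libraries (12139 genes), in groups of arm and phase. Both were tested on simulated data, with independent counts around the mean of each gene and changes added to some genes. That setting held no time course within a phase and no lane effect, so it does not give error rates for these libraries. The SE is the log2 fold change divided by the square root of F. All phases of a fit share a spread estimate, so the SE is not the spread of the 3 times of a phase alone. Totals of 36873155 to 60918651 counts set the precision, and floors of 3 counts cover counting error only. Alternatives used DESeq2 1.42.0, limma 3.58.1, other scalings, filters, phase limits and lane, and left out each time.

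The members and lists were chosen with earlier results of these data known. Values are given in full for Srebf1, Srebf2, Insig1 and, in each role, for the 3 members with the largest change past the threshold in any of the 9 tests. Other members named were chosen after their values were seen. The rule also takes at most 3 genes from each further list, and some of these are not reported here.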

Additional observations from a re-analysis of the deposited data

Results flagged for a closer look

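For 6 members the treatment effect differed between phases by a test of the difference itself (edgeR's quasi-likelihood test, adjusted over all genes, n = 3 times per phase). Late minus middle was 0.75 for Abcg1 (adjusted p = 0.0292), 0.73 for Cyp51 (adjusted p = 0.00679), 0.57 for Insig2 (adjusted p = 0.0139) and −0.85 for Scd1 (adjusted p = 0.00392), on the log2 scale. Middle minus early was −0.82 for Abca1 (adjusted p = 0.0328) and 0.81 for Idi1 (adjusted p = 0.0357). Of 18 alternatives each, the call was kept in 16 for Cyp51, 15 for Scd1, 13 for Insig2, 11 for Abcg1, 10 for Idi1 and 9 for Abca1.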

How the results depend on the processing

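Counts are of members past the threshold. For treatment early (0) DESeq2 gave 5, no filter 8, and leaving out a time 0 to 2. For treatment middle (3) the fit without a time factor gave 0, that relative to the 0 min pair 0, and that without time and with lane, added after seeing the data, 0. Leaving out a time gave 1 to 4. For treatment late (13) moved phase limits gave 7, no time factor 3, relative to the 0 min pair 3, no time factor with lane 0, and leaving out a time 7 to 13. For late minus middle (4) lane gave 1, moved phases 2, no time factor 0, and leaving out a time 2 to 6. For middle minus early (2) DESeq2 gave 5, no filter 8, lane 0, moved phases 1, no time factor 0, and leaving out a time 0 to 5.

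Within the stimulated arm, middle minus early (25) ranged from 14 to 27 when a time was left out. Late minus middle (13) gave 5 with lane, 2 with moved phases and 0 to 26 when a time was left out. In the untreated arm, middle minus early (12) gave 20 with no filter, 21 with moved phases and 2 to 17 when a time was left out. Late minus middle (2) gave 1 with library totals, 7 with DESeq2, 4 with limma-voom, 7 with no filter, 0 with lane, 0 with moved phases and 1 to 16 when a time was left out. The cause of these shifts was not tested.

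Over single members that passed in the results above, 988 of 1293 values kept direction and side of the threshold, 304 lost the threshold and 1 reversed. Calls gained under an alternative are not among these values, and some alternatives left out a time outside the contrast. The reversed value was the middle treatment effect of Abcg1, at −0.062 (edgeR adjusted p = 0.979) without a time factor and with lane. Late calls were kept in 18 of 19 alternatives for Scd1, 17 for Abca1, Abcg1, Cyp51 and Scap, and 12 for Fads2, Hsd17b7 and Sc5d. The treatment fits pair the arms by time, and the fits without a time factor above drop that pairing. A block by replicate number could not be fitted, since no sample has such a number in its labels. Low counts limit the precision for Me1 and Abcg4, and Elovl6 had no counts.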
